A study of Mus musculus with 12 samples.

Results

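RNA sequencing was compared between Dis3l knockout mouse embryonic stem (ES) cells, labelled Dis3L KO, and wild-type ES cells, labelled Dis3L WT. Each group has 3 samples in the labels, 6 of the 12 samples of the series. Per the labels' protocols, both groups were lines derived from blastocysts on a layer of inactivated mouse embryonic fibroblasts and grown in serum (15% FBS) with 500 IU/ml of the cytokine LIF. Age, sex, strain, passage and the number of lines are not given in the sources used here, nor is the part of Dis3l that was deleted. Whether the 3 samples of a group came from separate lines or cultures is not stated either, so p-values measure only the spread between the libraries compared. RNA of lysed cells was depleted of ribosomal RNA and made into stranded libraries, so transcripts without a poly(A) tail were kept.

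All 13009 genes of the ES cell comparison were taken, and the 12527 autosomal genes formed the main set. An adjusted p-value was given for 10739 genes, of which 10358 were autosomal and 370 X-linked. The authors' deposited table gives for each gene a mean of normalised read counts, a log2 fold change, its standard error (SE) and the p-value of a Wald test, with a Benjamini-Hochberg adjustment. A gene is called here when that adjusted p-value is under 0.05. Which genotype was divided by which is not given, so signs are kept as deposited. The positive side is the side with more reads of a gene whose log2 fold change is positive, and the negative side is the other. The fold changes are shrunken towards 0, since their SEs in the authors' deposited table do not exceed 0.33.

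No value per sample is given, but each mean is a sum of whole reads over a few count columns and could be solved for them. There were 4 such columns, 2 on each side, against 6 labelled samples. They are called here positive-side columns 1 and 2 and negative-side columns 1 and 2. Exactly 1 solution was found for all 12862 genes with a mean up to 1000, which together held 1527881, 933259, 1258116 and 1299985 reads in that order. A log2 read ratio is the positive-side over the negative-side mean of reads divided by the columns' size factors. Columns were placed on a side by the deposited fold changes themselves and were not assigned to a genotype, so reads show the spread behind a call and are not independent support for it.

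DIS3L provides the nuclease activity of the RNA exosome in the cytoplasm, where that ring-shaped complex degrades RNA from the 3′ end. The SKI complex threads mRNA into that ring after the CCR4-NOT complex has shortened the poly(A) tail, while decapping and the exonuclease XRN1 open a second route from the 5′ end. Replication-dependent histone mRNAs have no poly(A) tail: they end in a conserved stem-loop bound by the protein SLBP, and at the end of S phase they are degraded from both ends, with the exosome taking part.

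Dis3l itself (ENSMUSG00000032396) lies on chromosome 9 from 64306756 to 64341288 (GRCm38), on the minus strand. It had 14 and 8 reads on the positive side against 39 and 39 on the negative side, so the columns of the sides did not overlap and reads remained on both sides. The log2 read ratio was −1.78, and leaving out each column in turn gave −1.83 to −1.74. In the authors' deposited table the log2 fold change was −0.88 (SE 0.33), with p = 0.00778 and an adjusted p of 0.445 by the Wald test, so the targeted gene did not pass. Because the deleted part is not known, total reads of the gene cannot show how much of it was lost.

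The cells carried the transcripts that define ES cells. All 10 ES cell markers were tested, among them Pou5f1, Sox2 and Nanog, the core pluripotency transcription factors. Per kilobase of transcript their means lay between the 89.4th and the 99.8th percentile of tested genes. No ES marker was called, and 0 of 10 had an unadjusted p under 0.05 by the authors' Wald test. Of 6 trophectoderm markers, Gata3, Tfap2a, Krt7 and Eomes were listed with 1 to 12 reads in any column but for 1 column at 0, too few for an adjusted p, and Cdx2 and Elf5 were not analysed here. Of 6 primitive endoderm markers, Pdgfra and Dab2 were tested, at the 37.7th and the 2.28th percentile. Pdgfra had 121 and 73 reads on the positive side against 85 and 88 on the negative side. Dab2 had 18 and 6 reads against 6 and 17. Gata4 and Sox7 had 1 to 7 reads a column, while Gata6 and Sox17 were not analysed here. Fibroblast markers were present on both sides. The 10 of 11 with solved reads summed to 1043 and 861 normalised reads in the positive-side columns, and to 931 and 2421 in the negative-side columns. Negative-side column 2 stood apart most in Col3a1 and Postn. Col3a1 had 56, 56 and 56 reads in the other columns and 895 there, and Postn 3, 0 and 1 against 131. In normalised reads that column was the lowest for Vim (452) and Thy1 (14.5), and the highest for the other markers with solved reads. In bulk RNA, fewer cells of a type and less RNA per cell cannot be told apart.

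Other differences between columns ran alongside the sides. X-linked genes deviated from each gene's mean over the columns by a median of −0.27 and −0.19 (log2) on the positive side against 0.08 and 0.40 on the negative side, over 259 genes with a mean of at least 30. Autosomal genes lay within 0.02 of 0 in all 4. Y-linked reads also differed within a side: Uty, which encodes a histone demethylase relative, had 4 and 500 reads on the positive side against 52 and 8 on the negative side. By GC content of the transcript, the median log2 read ratio of autosomal genes went from 0.15 in the lowest of 5 equal bins to −0.14 in the highest. By length it stayed between 0.00 and 0.02, but negative-side column 2 was low in the bin of shortest transcripts (−0.13) and high in that of the longest (0.13), the reverse of negative-side column 1 (0.12 and −0.13). The part of these differences in the results below was not tested.

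**Figure D1:**
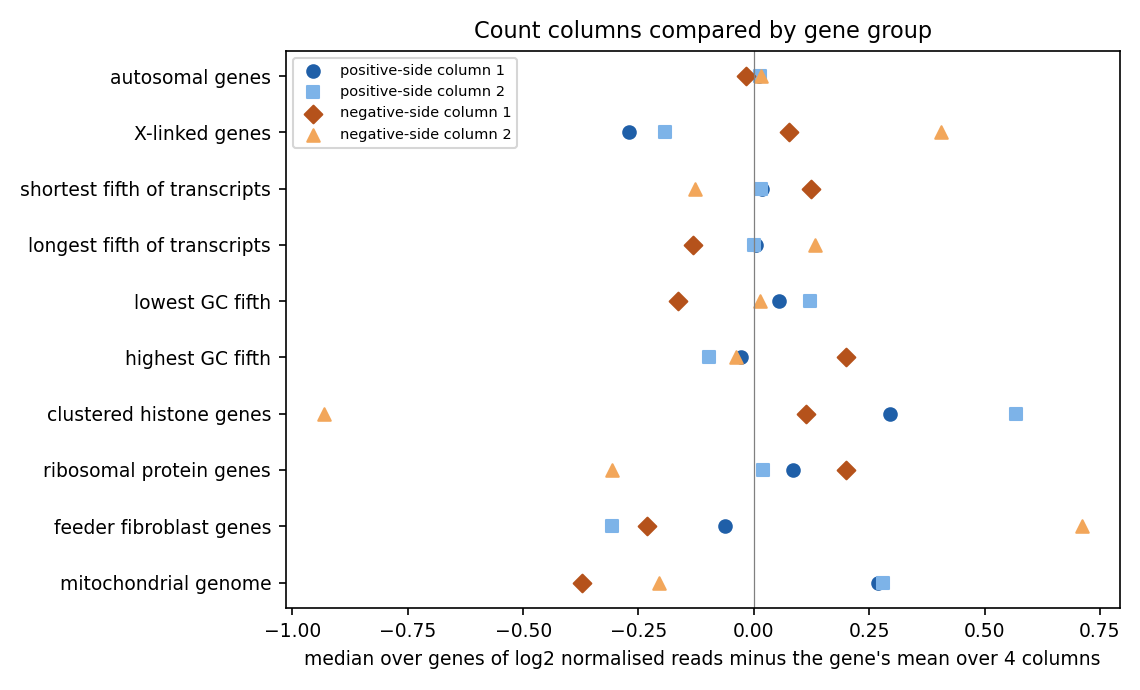
Median deviation of each count column from the gene's own mean over the 4 columns (x axis, log2 of normalised reads), for groups of genes (y axis); markers stand for columns. Autosomal genes lie near 0 in all columns, while negative-side column 2 lies at −0.93 for clustered histone genes and at 0.71 for feeder fibroblast genes.

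Of the autosomal genes, 18 were called, 0.174% of those tested: 4 were positive (0.0386%) and 14 negative (0.135%). At an unadjusted p under 0.05 there were 517 (4.99%), 229 positive (2.21%) and 288 negative (2.78%). Counts of list members at that threshold, below, stand beside those shares. The called genes had means of 18.9 to 247 normalised counts and absolute log2 fold changes of 1.07 to 1.89 in the authors' deposited table. In all 18 the columns of the sides did not overlap, which was also so for 39.7% of the 10219 autosomal genes with solved reads, 20.5% with the positive side higher and 19.2% with the negative side higher. Because the sides did not overlap, no sign could turn when any 1 column was left out.

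Genes known from neurons stood among them, in both directions. The list of neuronal adhesion, synaptic and axon guidance genes had 27 tested members, of which 2 were called positive and 2 negative, against 0.0386% and 0.135% of all autosomal genes. Like every list here, it was chosen with earlier results of these data known, so its shares are a description and not a test. At an unadjusted p under 0.05 it had 5 positive and 2 negative members, against 2.21% and 2.78%. Its median log2 fold change was 0.16 against 0.01 over all autosomal genes, and its median log2 read ratio of 0.33 was 0.20 without positive-side column 1. Kctd16 (chromosome 18, 40258361 to 40531168), an auxiliary subunit of GABA-B receptors, had 395 and 122 reads on the positive side against 79 and 30 on the negative side. Its log2 fold change in the authors' deposited table was 1.51 (SE 0.31), and the log2 read ratio of 2.19 became 3.04 without negative-side column 1. Cadps2 (chromosome 6, 23262773 to 23839421), which primes dense-core vesicles for release, had 140 and 68 reads against 21 and 32, with a log2 fold change of 1.34 (SE 0.31) in the authors' deposited table. On the other side stood Dclk2 and Cdh4. Dclk2 (chromosome 3, 86786151 to 86920852), a doublecortin-like kinase that binds microtubules, had 37 and 28 reads on the positive side against 253 and 158 on the negative side. Its log2 fold change of −1.89 (SE 0.29) was the largest of any called autosomal gene in the authors' deposited table, with an adjusted p of 3.07e-07 by the Wald test. Cdh4 (chromosome 2, 179442431 to 179899373), the adhesion molecule R-cadherin, had 62 and 12 reads against 176 and 214. Positive-side columns thus differed from each other in Cdh4, and its log2 read ratio of −2.52 was −3.57 without positive-side column 1 and −1.92 without positive-side column 2. Outside that list, Nell2 (chromosome 15, 95219451 to 95528706), a secreted glycoprotein found in neurons, had 6 and 0 reads against 44 and 62. The authors' deposited table gave it a log2 fold change of −1.67 (SE 0.33). Its read ratio of −4.41 was −3.41 without positive-side column 2, and without column 1 no positive-side read was left.

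Germline genes also moved both ways. This list holds genes that are usually silenced by promoter methylation outside the germline; of 19 tested, 1 was called positive and 1 negative, while 2 and 5 had an unadjusted p under 0.05, against 2.21% and 2.78% of all autosomal genes. Tex15 (chromosome 8, 33516738 to 33585582), which acts in meiotic recombination and piRNA-directed silencing in male germ cells, had 409 and 328 reads on the positive side against 136 and 103 on the negative side. Its log2 fold change in the authors' deposited table was 1.42 (SE 0.25), with an adjusted p of 3.08e-05 by the Wald test. Fkbp6 (chromosome 5, 135291704 to 135350044), a co-chaperone of the piRNA pathway, had 21 and 6 reads against 74 and 126. The authors' deposited table gave it a log2 fold change of −1.72 (SE 0.32). Its log2 read ratio of −2.96 was −3.60 without positive-side column 1. The next largest statistics of the list belonged to meiotic cohesin subunits, neither of them called: Stag3 at −1.04 (SE 0.30) and Smc1b at −0.99 (SE 0.33) in the authors' deposited table. Positive-side column 2 set the level of the list. The median log2 read ratio was −0.39 with all columns, −0.45 to −0.39 without any other column, and 0.00 without that one.

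Pramel6 and Pramel7, PRAME family genes expressed in the early embryo and in ES cells, were nearly confined to the negative-side columns. Pramel6 (chromosome 2, 87506565 to 87510872) had 0 and 2 reads on the positive side against 28 and 70 on the negative side, and Pramel7 (chromosome 2, 87489087 to 87497093) had 5 and 0 against 110 and 208. The log2 read ratio of Pramel7 was −6.26, or −5.26 without positive-side column 2, and without column 1 it had no positive-side read. In the authors' deposited table their log2 fold changes were −1.63 (SE 0.33) and −1.20 (SE 0.31). The genes are neighbours, 9.47 kb apart, on opposite strands. They belong to a family of near-identical copies, so reads could have been divided among copies and both calls are uncertain. They were the 2 called members of the early cleavage-stage list, which had only 3 tested. The third, Eif1a, was at 0.17 (SE 0.22) in the authors' deposited table.

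The next called genes have varied roles. Lama3 (chromosome 18, 12333819 to 12583013), a laminin chain of epithelial basement membranes, had 22 and 23 reads on the positive side against 110 and 136 on the negative side, with a log2 fold change of −1.58 (SE 0.31) in the authors' deposited table. At 144 kb from it lies 3110002H16Rik (chromosome 18, 12168717 to 12189997), an uncharacterised gene that moved the opposite way. It had 326 and 262 reads against 105 and 83 and a log2 fold change of 1.42 (SE 0.26) in the authors' deposited table. Its last 305 bases overlap Npc1, the lysosomal cholesterol transporter, on the other strand. Since the counting is not stated to have used strand, reads there cannot be assigned, and Npc1 was at 0.35 (SE 0.29) in the authors' deposited table. Ly6e, a lipid-anchored surface protein induced by interferon, had 76 and 52 reads against 200 and 191. Tyro3, a receptor tyrosine kinase of the TAM family, had 88 and 78 reads against 204 and 252. The sides overlapped in neither gene, and the authors' deposited table gave them log2 fold changes of −1.22 (SE 0.27) and −1.07 (SE 0.27).

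The 5 remaining negative calls had lower counts. Map3k5, the stress-activated kinase ASK1, had 43 and 21 reads on the positive side against 89 and 124 on the negative side. Serpinb6c, a serine protease inhibitor, had 25 and 9 reads against 67 and 121. Rcsd1, which binds the actin-capping protein CapZ, had 3 and 0 reads against 25 and 51. All 3 genes were apart between sides. Neb, the giant thin-filament protein nebulin, had 21 and 13 reads against 57 and 131, and Meis2, a homeobox transcription factor, 18 and 11 against 35 and 138. In both of these, negative-side column 2 was well above column 1: without it the log2 read ratio went from −2.42 to −1.68 for Neb and from −2.53 to −1.21 for Meis2, and without negative-side column 1 that of Meis2 was −3.21. In the authors' deposited table the log2 fold changes of Map3k5, Serpinb6c, Rcsd1, Neb and Meis2 were −1.17, −1.49, −1.42, −1.42 and −1.30. Chromosome 2 held 6 of the 18 called autosomal genes and 8.39% of the tested ones, and chromosome 18 held 3 and 2.84%; the remaining called autosomal genes were spread over 8 chromosomes.

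**Figure D2:**
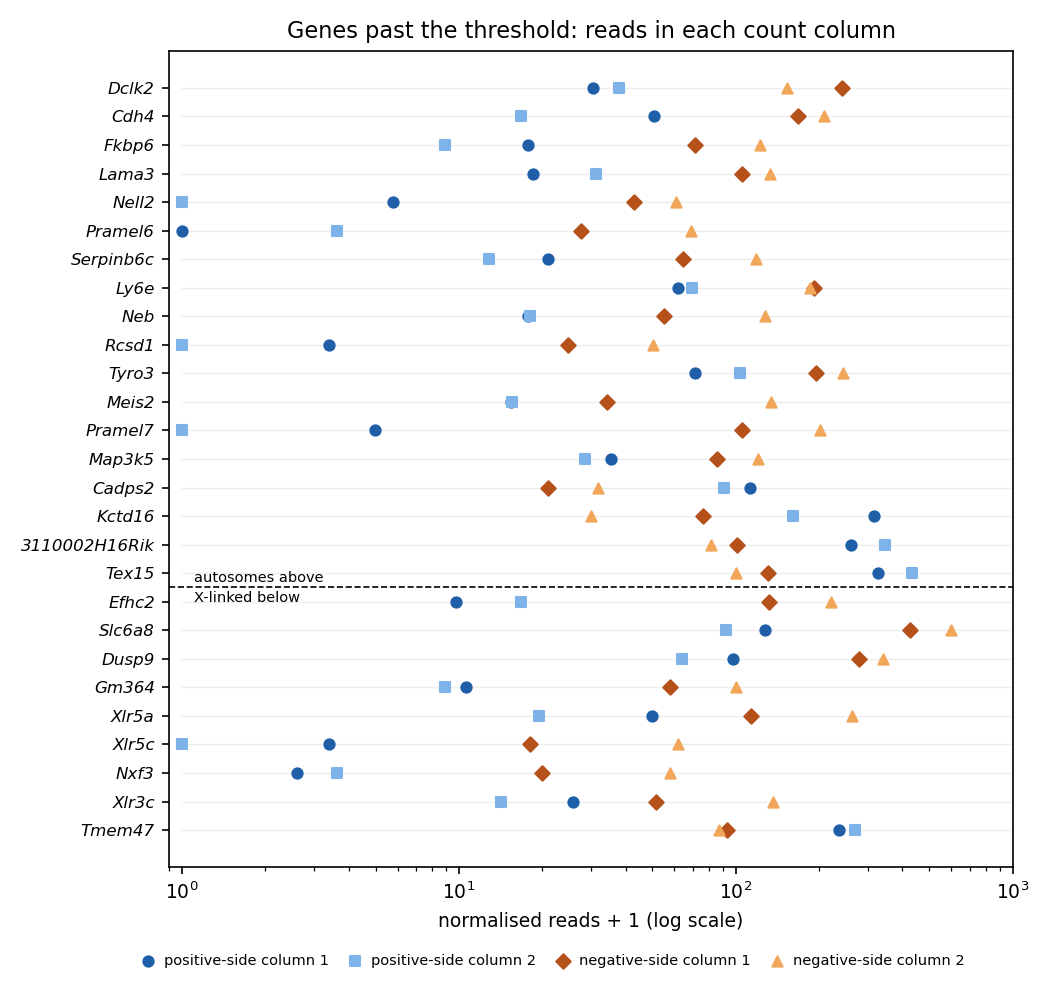
Normalised reads plus 1 (x axis, log scale) of the 27 called genes with solved reads (y axis), with 1 marker per count column. In the 18 autosomal genes, above the dashed line, and the 9 X-linked genes below it the columns of the sides do not overlap.

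Calls were spread unevenly over abundance. Among autosomal genes with a mean up to 20 normalised counts, 1 of 1730 was called, then 3 of 2732 at 20 to 50, 7 of 2223 at 50 to 100, 6 of 1865 at 100 to 200, 1 of 1339 at 200 to 500, and 0 of 330 and 0 of 139 in the bins above. In the bins with a call the shares were 0.0578%, 0.110%, 0.315%, 0.322% and 0.0747%, against 0.174% of all autosomal genes. At that share, bins of 330 and 139 genes are too small for 0 calls to be a result. Over all bins in order, the share with an unadjusted p under 0.05 was 3.12%, 4.03%, 5.67%, 6.27%, 6.65%, 4.85% and 3.60%. The median SE in the authors' deposited table was 0.33 at 20 to 50 and 0.21 above 1000. The smallest absolute log2 fold change called in the authors' deposited table was 1.42, 1.30, 1.17, 1.07 and 1.42 in the 5 bins with a call, in order of abundance. The median absolute log2 read ratio fell with abundance: it was 0.49 up to a mean of 20, 0.25 at 50 to 100 and 0.16 at 500 to 1000. Counting error is larger at low means, and its part in that fall was not tested. At 500 to 1000, the positive-side columns were both higher in 24.2% of genes and the negative-side columns in 9.70%, while the lowest bin had 19.1% and 18.9%. In the same direction, the median log2 fold change of the authors' deposited table was 0.01 at 100 to 200, 0.02 at 200 to 500, 0.04 at 500 to 1000 and 0.05 above 1000.

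**Figure D3:**
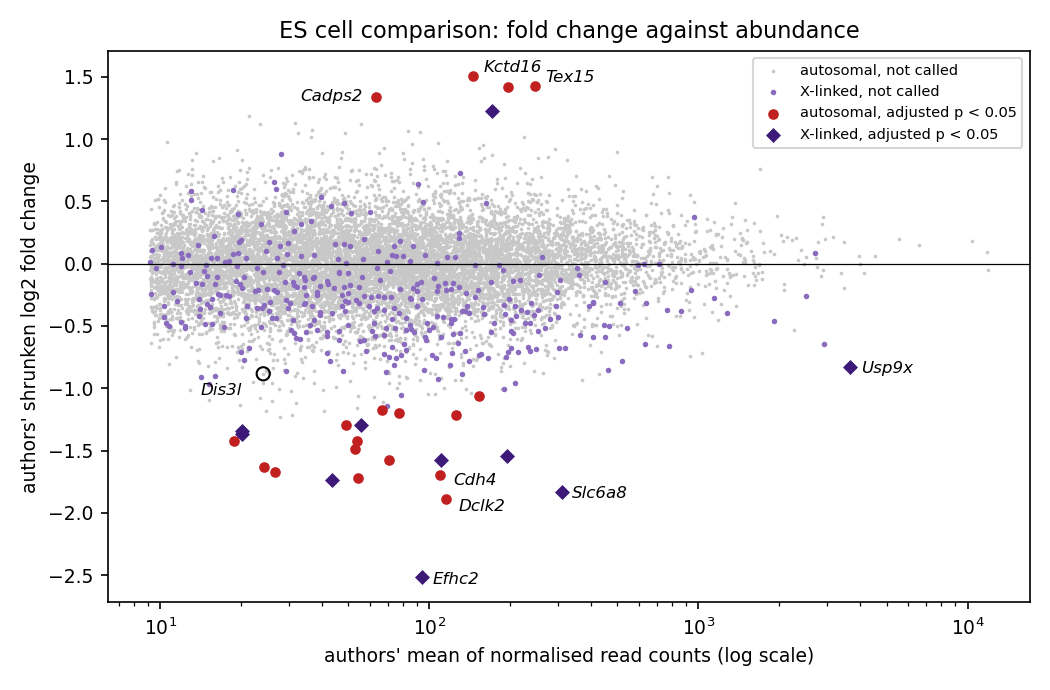
Log2 fold change of the authors' deposited table (y axis, shrunken) against the authors' mean of normalised read counts (x axis, log scale) for each tested autosomal or X-linked gene. The called autosomal genes (red) have means of 18.9 to 247, Dis3l is circled, and X-linked genes (purple) lie mostly below 0.

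Of the lists with at least 9 tested autosomal members, histone genes had the median farthest from 0. Of 67 listed, 63 were tested and none was called, but 15 were positive and 0 negative at an unadjusted p under 0.05, against 2.21% and 2.78% of all autosomal genes. Of the 63, 58 were positive in the authors' deposited table, and their median log2 fold change was 0.39, against 0.01 over all autosomal genes. The lowest adjusted p of the list was 0.133 by the Wald test. Both positive-side columns were higher in 35 of 63 genes and both negative-side columns in 1, against 20.5% and 19.2% of all autosomal genes. The difference lay in the clustered genes that supply histones in S phase. Their 54 tested members had a median of 0.45 and held all 15 genes with an unadjusted p under 0.05. The 9 replacement variants, which are made throughout the cell cycle, had a median of 0.10 in the authors' deposited table. Among clustered genes the medians were 0.59 for H1, the linker histone, and 0.47 for H2A, 0.39 for H2B, 0.54 for H3 and 0.34 for H4, the core histones, in the authors' deposited table.

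The 3′ stem-loop was searched for in the GENCODE M21 transcripts (GRCm38) as GGNNNTTTNNANNNCC with 6-base stems that pair exactly. A match, at any position in a transcript, was found in 59 of the 13009 genes (0.454%). These were 38 of 57 clustered histone genes, 1 of 10 variants (H2afx) and 20 other genes. Sites are shown for the most changed genes that hold one, for the forms the H4 genes use, and for the variant. Each is read 5′ to 3′ on the transcript strand, with the stem-loop in capitals.
Hist1h2ae, chr13:23570663-23570688, minus strand: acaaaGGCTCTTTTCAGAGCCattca
Hist1h1d, chr13:23555782-23555807, plus strand: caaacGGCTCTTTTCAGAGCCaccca
Hist1h4d, chr13:23581945-23581970, plus strand: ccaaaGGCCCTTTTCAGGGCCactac
Hist1h4j, chr13:21735432-21735457, plus strand: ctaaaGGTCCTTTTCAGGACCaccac
Hist2h4, chr3:96262934-96262959, minus strand: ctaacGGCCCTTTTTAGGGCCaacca
H2afx, chr9:44335235-44335260, plus strand: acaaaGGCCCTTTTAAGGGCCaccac
Of the sites shown, those of Hist1h2ae and Hist1h1d have the same stem-loop and the 3 H4 sites vary in the stem and in the loop. A match is a description of the annotated transcript, and no match says only that these letters are not in it. Among tested clustered histone genes, 9 of the 36 with a match and 6 of the 18 without one were positive at an unadjusted p under 0.05. Their median log2 fold changes in the authors' deposited table were 0.44 and 0.50. Genes without a match include short annotated transcripts, such as Hist1h4k (312 bases), Hist1h2ak (393) and Hist1h3i (411). Whether these reach the 3′ end of the mRNA was not tested. The split therefore compares annotated transcripts and cannot compare genes with and without a stem-loop.

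By reads, the largest statistics of the histone list were in Hist1h2ak, an H2A gene with 161 and 88 reads on the positive side against 54 and 51 on the negative side. Its log2 fold change in the authors' deposited table was 0.96 (SE 0.29). Hist1h2ae, also H2A, had 114 and 78 reads against 47 and 34, and 0.93 (SE 0.30) in the authors' deposited table. Hist1h3i, an H3 gene, had 108 and 107 reads against 67 and 33. Hist1h1d, a linker histone, had 700 and 486 reads against 465 and 220. In all 4 the sides did not overlap. The sums over the list were 9209 and 9987 normalised reads on the positive side against 8740 and 4385 on the negative side, so most of the difference lay in negative-side column 2. Replacement variants had a median log2 read ratio of 0.16, which turned to −0.22 without negative-side column 2 and to −0.05 without positive-side column 1. For the whole list, the median log2 read ratio of 0.63 was 0.22 without negative-side column 2 and 1.27 without negative-side column 1. It was 0.80 and 0.52 without positive-side columns 1 and 2. Clustered histone transcripts are short (median 532 bases) and rich in GC (57.8%). The bin of shortest autosomal transcripts was low in negative-side column 2, by −0.13 against −0.93 for clustered histones. Cytosolic ribosomal protein genes, also short, were low there too (−0.31). In the bin of highest GC that column lay at −0.04, with 0.20 in negative-side column 1. The positive-side columns of that bin lay at −0.03 and −0.10, and its median log2 read ratio was negative. Many histone genes are near-identical copies, so reads could have been divided among them.

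**Figure D4:**
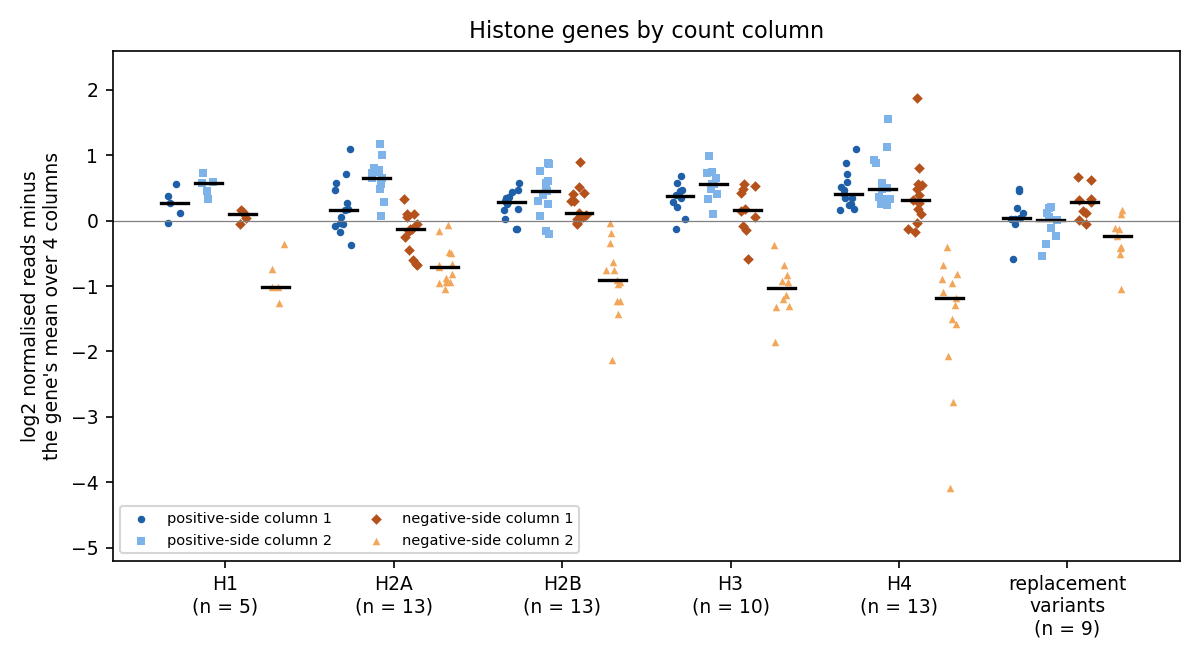
Deviation of each tested histone gene from its mean over the 4 count columns (y axis, log2 of normalised reads), by histone class (x axis, with the number of genes); each point is a gene in a column and black bars are medians. Negative-side column 2 has the lowest median in every class, and the spread among columns is smaller in the replacement variants.

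Genes that handle the stem-loop were looked up outside the naming rule. Slbp, the stem-loop binding protein, had 164 and 103 reads on the positive side against 132 and 123 on the negative side, with a log2 fold change of 0.10 (SE 0.27) in the authors' deposited table. Eri1, an exonuclease that trims the stem-loop, had 119 and 74 reads against 84 and 102 and stood at 0.08 (SE 0.28) in the authors' deposited table. Cell cycle genes had a median of −0.07 over 43 tested, 1 positive and 2 negative at an unadjusted p under 0.05 and 0 called. Ccnd3, a D-type cyclin, was at −0.88 (SE 0.29) and its relative Ccnd1 at 0.54 (SE 0.24) in the authors' deposited table. Those cyclins thus stood on different sides, and neither was called.

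Of the other RNA decay genes listed, 55 of 56 were tested and 0 were called. Of 24 exosome and SKI genes other than Dis3l, 13 were positive, the median was 0.04, and 1 had an unadjusted p under 0.05. That gene was Exosc3, a cap subunit of the exosome, at 0.66 (SE 0.32) in the authors' deposited table. Zcchc7, of the nuclear TRAMP complex, stood at 0.45 (SE 0.24) and Exosc6, a ring subunit, at −0.47 (SE 0.33) in the authors' deposited table. Of 31 tested genes of deadenylation, decapping, 5′ decay and nonsense-mediated decay, 1 had an unadjusted p under 0.05: Cnot6, a deadenylase, at 0.50 (SE 0.25) in the authors' deposited table. Its relative Cnot6l was at −0.47 (SE 0.30) in the authors' deposited table. Short-lived mRNAs, which carry AU-rich elements or belong to the immediate early genes, had 39 tested members, of which 12 were positive. Their median was −0.12 and 0 were called. Dusp1, a phosphatase that limits MAP kinases, had the largest statistic at −0.64 (SE 0.31), Jun was at −0.43 (SE 0.28) and Fosb at 0.45 (SE 0.31) in the authors' deposited table. By column their median deviations were 0.07 and −0.25 on the positive side against 0.24 and −0.04 on the negative side, so each side held 1 higher and 1 lower column. Their median log2 read ratio of −0.21 turned to 0.018 without negative-side column 1 and was −0.43 without positive-side column 1.

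Of 31 lists with at least 9 tested autosomal members, 21 turned the sign of their median log2 read ratio when 1 of the 4 columns was left out, and 10 did not. Pluripotency genes held no call. Of 27 tested general and naive pluripotency genes 7 were positive, with a median of −0.17, and 1 in each direction had an unadjusted p under 0.05. Tbx3, a transcription factor of the naive state, was at −0.69 (SE 0.27) and Fbxo15, an F-box protein marking ES cells, at 0.62 (SE 0.25) in the authors' deposited table. Pou5f1 had 1042 and 576 reads on the positive side against 1523 and 836 on the negative side, which after normalisation left negative-side column 1 high and the other 3 columns alike (832, 758 and 808 against 1448). Nanog had 653 and 285 reads against 506 and 756, and Sox2 606 and 347 against 555 and 490. The sides overlapped in all 3 genes. Their log2 fold changes in the authors' deposited table were −0.42 (SE 0.24), −0.36 (SE 0.24) and −0.08 (SE 0.22). The list's median log2 read ratio of −0.22 was −0.08 without positive-side column 2 and −0.39 without positive-side column 1.

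Lists of later or neighbouring fates held no called gene. Of 13 tested formative and primed epiblast genes, 2 had an unadjusted p under 0.05, both negative, against 2.78% of all autosomal genes. They were Foxd3 at −0.80 (SE 0.33) and Otx2 at −0.75 (SE 0.31) in the authors' deposited table, transcription factors of the exit from the naive state. Lefty2, an inhibitor of Nodal, was at −0.57 (SE 0.30) and Sox4 at 0.50 (SE 0.32) in the authors' deposited table. Primitive endoderm genes had a median of −0.38 over 14 tested. Of these, 3 were negative at an unadjusted p under 0.05, against 2.78% of all autosomal genes. Those 3 were basement membrane genes, which fibroblasts also express. Col4a1 was at −0.77 (SE 0.29), Col4a2 at −0.72 (SE 0.27) and Lamc1 at −0.45 (SE 0.21) in the authors' deposited table. Pdgfra, a receptor on primitive endoderm and on fibroblasts, had 121 and 73 reads on the positive side against 85 and 88 on the negative side, and it was at 0.16 (SE 0.28) in the authors' deposited table. The median log2 read ratio of the primitive endoderm list was −0.52, and −0.64 to −0.26 with 1 column left out, the last without negative-side column 1. Trophectoderm genes had a median of 0.03 over 9 tested, but a median log2 read ratio of −0.57 over the 5 with solved reads and a mean of at least 30. Tfap2c, a transcription factor of trophectoderm and germ cells, was at 0.91 (SE 0.33) and the keratin Krt8 at −0.59 (SE 0.31) in the authors' deposited table.

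Fibroblast genes had a median of −0.21 over 25 tested, with 4 negative and 0 positive at an unadjusted p under 0.05, against 2.78% and 2.21% of all autosomal genes, and 0 called. Col1a1, the main chain of fibrillar collagen, had 18 and 12 reads on the positive side against 29 and 80 on the negative side, and Col1a2 had 95 and 41 against 89 and 304. Their log2 fold changes in the authors' deposited table were −0.92 (SE 0.33) and −0.56 (SE 0.32). Negative-side column 2 was the high column in both. The list's median log2 read ratio was −0.56, but 0.09 without that column, so its direction rested on 1 column; without each other column it was −0.95 to −0.44. Whether feeder cells entered that library in a larger share was not tested.

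Signalling genes downstream of FGF stood mixed. Of 19 tested FGF and ERK feedback genes 1 was positive and 2 were negative at an unadjusted p under 0.05. Spry4, an inhibitor of receptor tyrosine kinase signalling, had 92 and 36 reads on the positive side against 245 and 102 on the negative side. Its adjusted p in the authors' deposited table was 0.150 by the Wald test. Phlda1, which is induced by ERK, was at −0.91 (SE 0.32) and Spred1, another inhibitor, at 0.51 (SE 0.24) in the authors' deposited table. The list's median log2 read ratio of −0.18 turned to 0.15 without negative-side column 1 and was −0.45 without negative-side column 2. WNT, BMP and Nodal genes had a median of −0.15 over 21 tested, 5 of them positive. Their median log2 read ratio of −0.37 was −0.10 without negative-side column 1 and −0.12 without positive-side column 2. Bmpr1a, a BMP receptor, had the largest statistic at −0.60 (SE 0.26) in the authors' deposited table. Imprinted genes had a median of 0.09 over 25 tested. The neighbours Grb10, an adaptor that restrains growth factor signalling, and Ddc, a decarboxylase, were at 0.56 (SE 0.21) and −0.68 (SE 0.33) in the authors' deposited table. Writers and erasers of DNA methylation had a median of 0.02 over 17 tested, with Uhrf2 at 0.65 (SE 0.25) and Dnmt3l at −0.48 (SE 0.22) in the authors' deposited table.

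None of the stress lists held a called gene. Of 32 tested targets of the integrated stress response, driven by ATF4, 16 were positive, the median was 0.00 and 0 had an unadjusted p under 0.05 in either direction. Slc7a11, the cystine transporter, was at 0.48 (SE 0.27) and Slc7a1, an arginine transporter, at −0.49 (SE 0.27) in the authors' deposited table. Of 23 genes of the unfolded protein response and its chaperones, 6 were positive, with a median of −0.10, and Xbp1, its transcription factor, was at −0.61 (SE 0.31) in the authors' deposited table. Innate RNA sensing and interferon response genes had 17 tested members and a median of 0.09. Parp14 was at 0.77 (SE 0.33), Ifit1, which binds foreign RNA ends, at 0.65 (SE 0.31) and Oas1a, a sensor of double-stranded RNA, at −0.67 (SE 0.33) in the authors' deposited table. Ifit1 and Oas1a had means of 11.5 and 16.4 normalised counts there. Of 29 tested targets of p53, 9 were positive, with a median of −0.09. Their median log2 read ratio of −0.11 was −0.27 to −0.04 with 1 column left out. At an unadjusted p under 0.05 there were 2 in each direction, against 2.21% positive and 2.78% negative of all autosomal genes. Trp53inp1 was at 0.49 (SE 0.21) and Cdkn1a, the cell cycle inhibitor p21, at −0.66 (SE 0.29) in the authors' deposited table. Glutathione and antioxidant genes had 20 of 26 positive and a median of 0.09. Their median log2 read ratio of 0.16 was −0.13 without negative-side column 2 and 0.38 without negative-side column 1. The metallothioneins Mt2 and Mt1, which bind zinc and copper, led them at 0.70 (SE 0.25) and 0.55 (SE 0.29) in the authors' deposited table.

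Lists of growth and energy metabolism had medians near 0. The median log2 fold change was 0.05 for 80 cytosolic ribosomal protein genes, 0.02 for 46 translation factors, 0.02 for 40 ribosome biogenesis genes, 0.01 for 76 nuclear-encoded respiratory chain genes, 0.02 for 75 mitochondrial ribosomal protein genes and −0.03 for 43 proteasome genes in the authors' deposited table. Those 6 lists held 360 tested genes, of which 0 were called. At an unadjusted p under 0.05, 1 was positive and 4 were negative, against 2.21% and 2.78% of all autosomal genes. Each of the 6 lists turned the sign of its median log2 read ratio when 1 column was left out. The negative-side columns deviated in opposite directions, by 0.20 and −0.31 for ribosomal protein genes and by 0.21 and −0.23 for respiratory chain genes. Of the ribosomal protein genes 56 of 80 were positive, against 51.0% of all autosomal genes. Rplp0, a stalk protein of the ribosome, was at 0.48 (SE 0.21) and Eif2b5, a subunit of the initiation factor exchange complex, at −0.65 (SE 0.23) in the authors' deposited table. Of 27 cholesterol and lipid synthesis genes, 3 had an unadjusted p under 0.05, all negative, against 2.78% of all autosomal genes. They were Scd1, Fasn and Sqle, at −0.71 (SE 0.32), −0.48 (SE 0.22) and −0.59 (SE 0.29) in the authors' deposited table. Their list had a median of 0.04. Of 23 glucose uptake and glycolysis genes, Eno1 and the lactate transporter gene Slc16a1 were positive and Pfkp was negative at that threshold.

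Transcripts of the mitochondrial genome lay on the positive side: 6 of 7 were positive and 0 were called. All 3 with an unadjusted p under 0.05 were positive, against 2.21% of all autosomal genes. Mitochondrial genes are no part of the autosomal set. The mitochondrial gene mt-Cytb, a subunit of respiratory complex III, had 576 and 299 reads on the positive side against 269 and 269 on the negative side. Its log2 fold change was 0.63 (SE 0.23) in the authors' deposited table. Over the 6 genes with solved reads, the columns summed to 1715 and 1693 normalised reads against 1113 and 1214. Over the 5 of them with a mean of at least 30, the median log2 read ratio was 0.46. It stayed between 0.44 and 0.74 with 1 column left out.

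X-linked genes supplied 10 further calls, 2.7% of the 370 tested, 9 of them negative. Of all tested X-linked genes 80.0% were negative in the authors' deposited table. In every 20 Mb window of the chromosome the median log2 read ratio was negative, from −0.60 to −0.33, so the shift was not limited to a region. Efhc2 had 11 and 12 reads on the positive side against 138 and 227 on the negative side. Slc6a8 had 159 and 69 reads against 446 and 621, and Dusp9 had 121 and 48 against 291 and 350. Their log2 fold changes in the authors' deposited table were −2.52 (SE 0.31), −1.83 (SE 0.25) and −1.55 (SE 0.26). Also called were Gm364 (12 and 6 against 60 and 103) and the RNA export factor relative Nxf3 (2 and 2 against 20 and 59). Tmem47 was the positive call, with 294 and 204 reads against 97 and 89. The deubiquitinase Usp9x was called too. Usp9x was the one called gene too abundant to solve, its mean being 3663 and its log2 fold change −0.83 (SE 0.21) in the authors' deposited table. The last 3, Xlr3c, Xlr5a and Xlr5c, are germline genes of a multicopy family whose annotated spans overlap, so their calls are uncertain. Their reads were 31 and 10 against 53 and 140, 61 and 14 against 118 and 272, and 3 and 0 against 18 and 63. Without negative-side column 2 the log2 read ratio went from −4.17 to −3.17 for Nxf3, from −2.29 to −1.41 for Xlr3c and from −2.48 to −1.74 for Xlr5a, which was −3.35 without positive-side column 1.

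**Figure D5:**
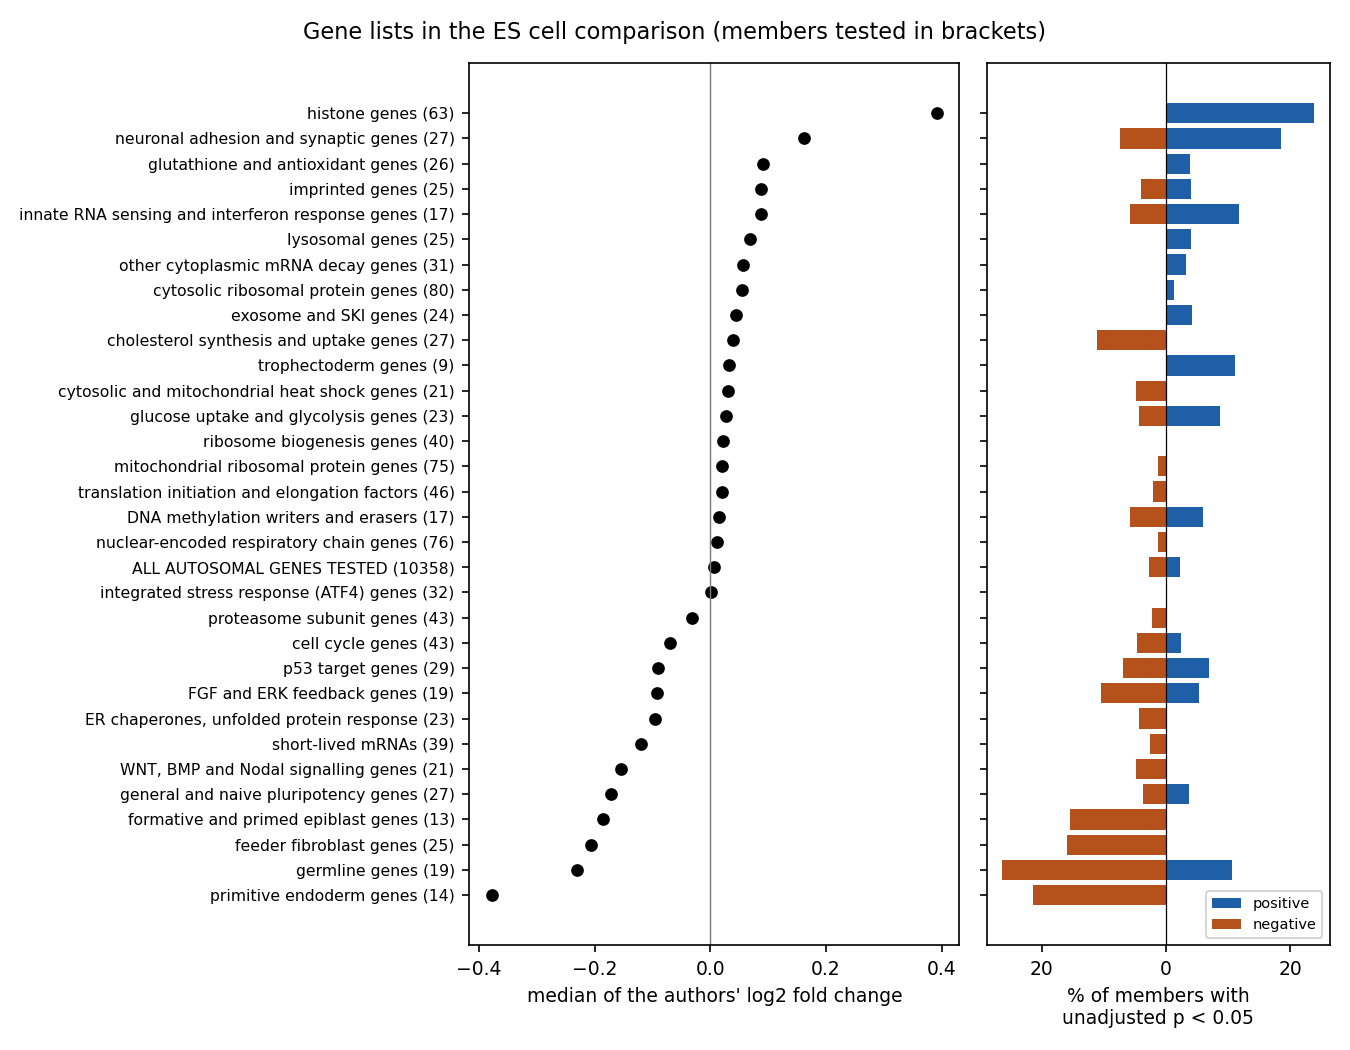
Left, median log2 fold change of the authors' deposited table (x axis) for each gene list with at least 9 tested autosomal members (y axis, number tested in brackets). Right, percent of those members with an unadjusted p under 0.05, positive to the right and negative to the left; histone genes lie at the top with a median of 0.39 and primitive endoderm genes at the bottom with −0.38.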

How the data were processed

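Per the submitters' processing notes, STAR 2.4.0b, Subread 2.0.1 with featureCounts, SAMtools, bedtools and DESeq2 1.34.0 were used, with GRCm38; which counting options were set is not given in the sources used here. The signal column is the authors' mean of normalised counts, per the file headers. Per the file headers, log2 values are the authors' fold change and its standard error, the score column their Wald statistic and the p-value columns the raw and adjusted p-value. The authors' own test was the main result, and 0 columns of per-sample values were left aside. The members and gene lists were chosen with earlier results of these data known. Genes named are Dis3l, every called gene, the up to 4 members with the largest statistic of each of the lists described with a few defining genes, and the 10 strongest called only under an alternative.

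Whole reads were solved from the means (numpy 2.4.6, numba 0.67.0, pandas 2.3.3, Python 3.11.15), checked on simulated data; reads carry counting error, and duplicate reads are not independent. Of 13009 gene IDs, 12997 were in GENCODE M21, 92.1% with the same coordinates. Columns were compared over genes with a mean of at least 30. List medians use autosomal members with an adjusted p; mitochondrial genes are the exception. Alternatives were another threshold, a minimum log2 fold change of 1, other sets for adjustment, a mean of at least 50, rescaled statistics, read ratios and leaving out each column.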

Additional observations from a re-analysis of the deposited data

How the results depend on the processing

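Of 18 called autosomal genes, 14 remained at an adjusted p under 0.01 and 14 when adjusted over autosomal genes only, while Pramel7, Meis2, Tyro3 and Map3k5 did not pass the latter. There were 28 (11 positive, 17 negative) with a mean of at least 50, 14 of them among the 18, and 73 (26 and 47) after rescaling statistics so that their robust SD was 1, all 18 included; the robust SD as deposited was 0.904. Over all chromosomes the 28 calls became 90 (27 positive, 63 negative) after rescaling and 39 (12 and 27) with a mean of at least 50. The other alternatives gave 17 and 18 autosomal genes and 20 to 27 in all. For Dis3l the deposited −0.88 became −1.78 from reads (−1.83 to −1.74 with 1 column left out). With 1 column left out, median read ratios ranged from −0.39 to −0.079 for pluripotency, −0.64 to −0.26 for primitive endoderm, −0.95 to 0.092 for fibroblast, −0.45 to 0.0043 for germline and 0.22 to 1.27 for histone genes; without negative-side column 2 alone the primitive endoderm value was −0.39. Of 31 autosomal lists with at least 9 tested members, 21 turned sign in their median read ratio without 1 column, among them imprinted (0.13 to as low as −0.099), interferon (0.12 to −0.059), exosome and SKI (0.095 to −0.022), other decay (0.072 to −0.067) and cell cycle genes (−0.082 to 0.062). The cause was not tested. None of 103 read ratios of called genes turned sign, but none could, because the columns of their sides did not overlap. Of 212 list values under alternatives, 157 stayed within the spread among columns. No paired analysis was possible because the deposited table carries no replicate numbers and its count columns are not tied to samples. Depth limits low genes: the lowest mean with an adjusted p was 9.18, so 2270 genes were not tested.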

Other observations

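Beyond the called genes, 62 genes, 55 of them autosomal, passed only under another way of adjusting the p-values, and the 10 autosomal ones with the largest statistics included further germline genes. Rnf17, a tudor-domain protein of the piRNA pathway, had 244 and 115 reads on the positive side against 369 and 376 on the negative side, and Gpat2, an acyltransferase of the same pathway, had 16 and 5 against 43 and 65. Their log2 fold changes in the authors' deposited table were −0.88 (SE 0.24) and −1.22 (SE 0.33). Pttg1, the securin that guards sister chromatid separation, had 6 and 8 reads against 69 and 32. Pard3, a polarity protein, had 411 and 174 against 549 and 653, and Cndp2, a dipeptidase, 170 and 61 against 312 and 240. In each of these 5 genes both negative-side columns were above both positive-side columns, as in 19.2% of all autosomal genes with solved reads. Since the genes were picked by their statistics, that separation is no independent support.

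Positive genes made up the rest of the 10. Rcc1, the chromatin-bound exchange factor of the GTPase Ran, stood at 0.76 (SE 0.21), with 1694 normalised counts on average, in the authors' deposited table. Sec16a, which organises the sites where vesicles leave the endoplasmic reticulum, had 675 and 613 reads on the positive side against 359 and 318 on the negative side. Kcnt2, a sodium-activated potassium channel, had 409 and 238 reads against 89 and 182, Zfp266, a zinc finger protein, 281 and 163 against 100 and 104, and Gtpbp10, a mitochondrial ribosome assembly factor, 150 and 114 against 58 and 47.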
